A study of Canis lupus familiaris with 12 samples.

Results

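SNARE proteins and the factors that bring vesicles to the apical membrane were followed in dog kidney epithelium grown as cysts or as flat sheets. The group was set by name, as 10 genes (SYTL2, SYTL4, STX3, STX4, VAMP7, VAMP8, SNAP23, MYO5B, AP1M2 and RAB3IP), and took every probe set whose platform annotation named a single gene of these. That gave 22 probe sets for 8 of the 10 genes, among 15115 genes measured in this way. No probe set was annotated to STX3 or SYTL4 alone, and neither is analysed here.

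All samples came from the tet-off form of MDCK II, a long-used dog kidney cell line named after Madin and Darby with epithelial features of the tubule, kept in medium with serum, antibiotics and G418. The 3D group held 6 arrays of cells grown for 8 days in 3-dimensional type I collagen culture, where they formed multicellular cysts, and the 2D group held 6 arrays of cells that formed flat sheets over 8 days in 2-dimensional culture with type I collagen, which the study took as its control condition. Each array carried the pooled RNA of 4 separate samples released from the gel with collagenase, so the spread between arrays is a spread between pools. The labels give no treatment or genetic change that differs between the groups, and the line with its tet-off background limits both groups as a model of kidney tubules.

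Vesicle fusion needs SNARE proteins on both membranes. A vesicle SNARE such as VAMP7 or VAMP8 zips together with a target syntaxin and a SNAP protein, and in MDCK cells syntaxin 3 sits on the apical and syntaxin 4 on the basolateral membrane. Upstream of fusion, Rab11 vesicles recruit Rabin8 (RAB3IP), which activates Rab8, while the motor myosin Vb (MYO5B) moves recycling vesicles and synaptotagmin-like proteins tether Rab27 vesicles at the forming lumen. A lumen is a new apical surface enclosed by cells, and MDCK cysts in a gel are a standard model of how it forms.

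Levels are log2(intensity + 1) of the deposited values, and a fold change is the mean in 3D minus the mean in 2D on that scale, with its standard error (SE). It was tested with limma over all 42924 non-control probe sets with Benjamini-Hochberg adjustment at 0.05. A gene with several probe sets was represented by that of the greatest average level across the 12 arrays. A control level was taken on each array as the 95th percentile of 59 control probe sets that match no dog sequence, and it lay between 5.59 and 5.91.

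The arrays separated by culture on the first principal component, which held 66% of the variance. The 8 measured of 9 kidney tubule markers, EPCAM, PAX8 and CDH16 among them, lay above the control level on all 12 arrays, with a summed intensity of 36596 to 38080 in 3D and 30105 to 34664 in 2D. Of these 8 markers, 3 were higher (CDH1, KRT8 and KRT18) and 2 were lower (CDH16 and PAX2) in 3D. Fibroblast, leukocyte and endothelial markers had sums of at most 539 in 3D and at most 526 in 2D. Of these 16 markers, 9 lay above the control level on all 12 arrays (COL3A1, PDGFRB, PTPRC, CD14, CD68, CD3E, CDH5, VWF and KDR), 5 on some arrays, and 2, COL1A2 and PECAM1, on none. CD14 was higher in 3D by 0.43 (limma adjusted p = 3.85e-05), 6 of the 16 were lower, and their part in the results was not tested. The 5-prime to 3-prime ratio of actin and GAPDH controls, a sign of RNA integrity, was on average -0.54 ± 0.17 on 3D arrays and -0.91 ± 0.14 on 2D arrays on the log2 scale (SD, n = 6 each; two-sided exact permutation p = 0.00866). In 3D replicate 2 this log2 ratio was -0.88, the lowest of its group and within the range of the 2D arrays. The part of this ratio in the changes below was not tested beyond a fit that holds it as a covariate.

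The measured members changed little between cysts and sheets. Of the 8 genes, 2 were lower in 3D (SYTL2 and RAB3IP), 0 were higher and 6 did not pass. Among all 15115 genes, 22.9% were lower and 19.8% were higher by the same rule, so the share of lowered members was near the background. In RNA of whole cultures, fewer cells of a kind and less RNA per cell cannot be told apart. MYO5B and STX4 had an unadjusted limma p of 0.0436 and 0.0378 and did not pass after adjustment. The median fold change of the members was -0.09, against -0.05 over all genes, and the median size of a change was 0.11, against 0.14. No member reached a 2-fold change, as 321 of all genes did with a limma adjusted p under 0.05. The 95% confidence intervals of the 8 genes reached no lower than a log2 fold change of -0.56 and no higher than 0.22.

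**Figure D1:**
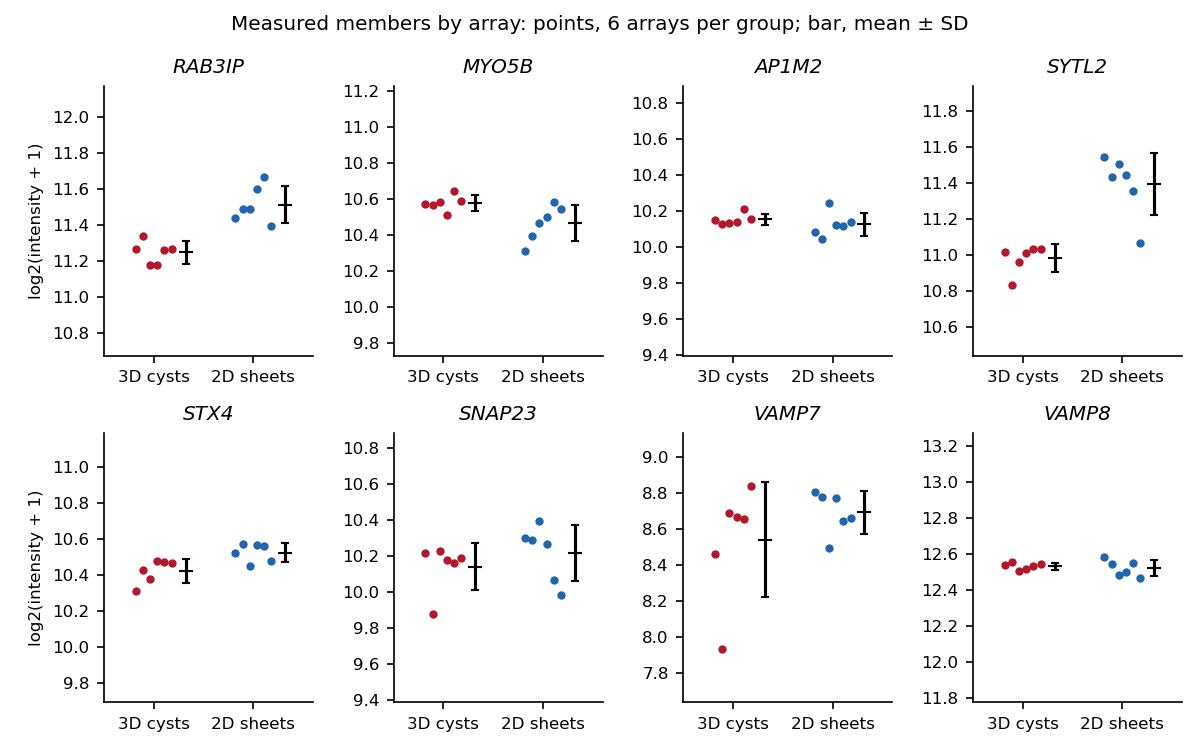
Level of each measured member, log2(intensity + 1), on the 6 arrays of 3D cysts and the 6 arrays of 2D sheets (points), with the mean and SD as a bar. Every panel spans 1.5 log2 units. The groups separate for RAB3IP and SYTL2 and overlap for the other 6 genes, and 1 array of 3D lies well below the rest for VAMP7 and SNAP23.

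RAB3IP encodes Rabin8, the exchange factor that loads Rab8 with GTP on vesicles bound for the apical membrane. Its level lay between 11.18 and 11.34 in 3D (median 11.26), against 11.39 to 11.67 in 2D (median 11.49). Each 3D array lay below each 2D array, though the highest 3D and lowest 2D arrays were close. RAB3IP fell by 0.27 on the log2 scale (SE 0.05, limma adjusted p = 0.00104), a 1.20-fold lower intensity. All 3 of its probe sets were lower without overlap, and the other two had fold changes of -0.31 and -0.30. These 3 probe sets carry suffixes that mark probes shared between transcripts or related genes. With the RNA control ratio as a covariate the fold change was -0.14 and the call ended (limma adjusted p = 0.256).

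MYO5B, the motor that carries Rab11 recycling vesicles along actin, had levels between 10.51 and 10.64 in 3D (median 10.58), against 10.31 to 10.58 in 2D (median 10.48). The groups overlapped, and 2 of the 3D arrays lay above all 2D arrays. The fold change of 0.11 (SE 0.05, 95% confidence interval 0.0036 to 0.22) did not pass (limma adjusted p = 0.0930), but passed without 2D replicate 5 (0.14, limma adjusted p = 0.0470). The 5 probe sets of MYO5B differed in sign. Those above the control level on all 12 arrays had fold changes of 0.11, 0.16 and 0.12, the last with a limma adjusted p of 0.482. One at a mean level of 10.00 in 3D and 9.84 in 2D was higher by 0.16 without overlap (limma adjusted p = 0.0111), while a dim one, above the control level on 3 of the 3D and 5 of the 2D arrays, was lower by a fold change of -0.20 (limma adjusted p = 0.0173). The fifth probe set lay at or below the control level on all 12 arrays, with a fold change of -0.08 (limma adjusted p = 0.377).

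AP1M2, the mu1B subunit of the epithelial AP-1 adaptor that sorts cargo to the basolateral side, had nearly equal levels. It lay between 10.13 and 10.21 in 3D (median 10.14), against 10.05 to 10.24 in 2D (median 10.12), with full overlap. The fold change was 0.03 (SE 0.04, 95% confidence interval -0.06 to 0.12, limma adjusted p = 0.632), and it was below 0 with quantile normalization (-0.04) and with the mean of its 2 probe sets (-0.07). A second probe set of the gene had a fold change of -0.17 and did not pass either (limma adjusted p = 0.107).

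SYTL2 encodes synaptotagmin-like protein 2, a Rab27 effector that binds lipids of the apical membrane and tethers vesicles there. Its level lay between 10.83 and 11.03 in 3D (median 11.01), against 11.07 to 11.54 in 2D (median 11.44). The groups did not overlap, and the lowest 2D array, replicate 6, lay just above the highest 3D array while the other 2D arrays were at 11.35 or more. SYTL2 fell by 0.41 on the log2 scale (SE 0.07, 95% confidence interval -0.56 to -0.26, limma adjusted p = 0.000284), a 1.33-fold lower intensity and the largest change among the members. It was also lower with the RNA control ratio as a covariate (-0.58, limma adjusted p = 0.000885) and without any 1 array (-0.48 to -0.38). The probe set that represents SYTL2 has a suffix that marks probes shared between transcripts or related genes. A second probe set lay at or below the control level on all 12 arrays with a fold change of -0.06 (limma adjusted p = 0.471). The mean of both gave -0.23 (limma adjusted p = 0.00672). Together RAB3IP and SYTL2 were the 2 of 8 members whose groups did not overlap, against 22.6% of all genes.

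Among the target SNAREs, STX4, the basolateral syntaxin, lay between 10.31 and 10.48 in 3D (median 10.45), against 10.45 to 10.57 in 2D (median 10.54). Of the 3D arrays, 3 lay below every 2D array and the rest overlapped. The fold change of -0.10 (SE 0.05, 95% confidence interval -0.20 to -0.0066) did not pass (limma adjusted p = 0.0833), and its second probe set gave -0.10 as well. STX4 passed with quantile normalization (-0.15, limma adjusted p = 0.0146).

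SNAP23, the widely expressed partner of plasma membrane syntaxins, lay between 9.88 and 10.23 in 3D (median 10.19), against 9.99 to 10.40 in 2D (median 10.28). The groups overlapped, and 3D replicate 2 was the lowest of all arrays. The fold change was -0.08 (SE 0.08, 95% confidence interval -0.24 to 0.09, limma adjusted p = 0.441), and -0.02 without 3D replicate 2. With the RNA control ratio as a covariate SNAP23 was lower (-0.36, limma adjusted p = 0.00588).

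Of the vesicle SNAREs, VAMP7, which serves apical delivery and lysosome fusion, varied most within a group. It lay between 7.93 and 8.84 in 3D (median 8.66), against 8.49 to 8.80 in 2D (median 8.72). The value of 7.93 came from 3D replicate 2, and the other 3D arrays lay at 8.46 or more. The fold change was -0.15 (SE 0.12, 95% confidence interval -0.40 to 0.10, limma adjusted p = 0.312), and -0.03 without that array (limma adjusted p = 0.735). With the RNA control ratio as a covariate it was -0.51 (limma adjusted p = 0.0283). Another probe set of VAMP7 was lower by a fold change of -0.22 (limma adjusted p = 0.00371) at levels at or below the control level on all 12 arrays, a class of probe sets of which 14.1% were lower.

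VAMP8, a vesicle SNARE of endosomes and secretory granules, had the narrowest spread. It lay between 12.50 and 12.56 in 3D (median 12.54), against 12.46 to 12.58 in 2D (median 12.52), so the 3D values lay within the range of the 2D values. The fold change was 0.01 (SE 0.04, limma adjusted p = 0.844), and its 95% confidence interval allowed a linear fold between 0.950 and 1.07. This probe set has the suffix of probes that may bind related sequences, and the other two of VAMP8 had fold changes of 0.09 and -0.19, neither of which passed (limma adjusted p = 0.110 and 0.0574). The change of VAMP7 minus that of VAMP8 was -0.16 (two-sided exact permutation p = 0.301 over 924 assignments), with overlapping groups. This was the 1 of 3 intended pairs that could be compared, since the others needed STX3 or SYTL4.

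Over all 22 probe sets of the members, 6 were lower and 1 was higher in 3D, against 22% lower and 16.7% higher of all 42924 probe sets. Of the 6 lowered ones, 4 belonged to RAB3IP and SYTL2 and lay above the control level on all 12 arrays. The other two were the dim probe sets of MYO5B and VAMP7.

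**Figure D2:**
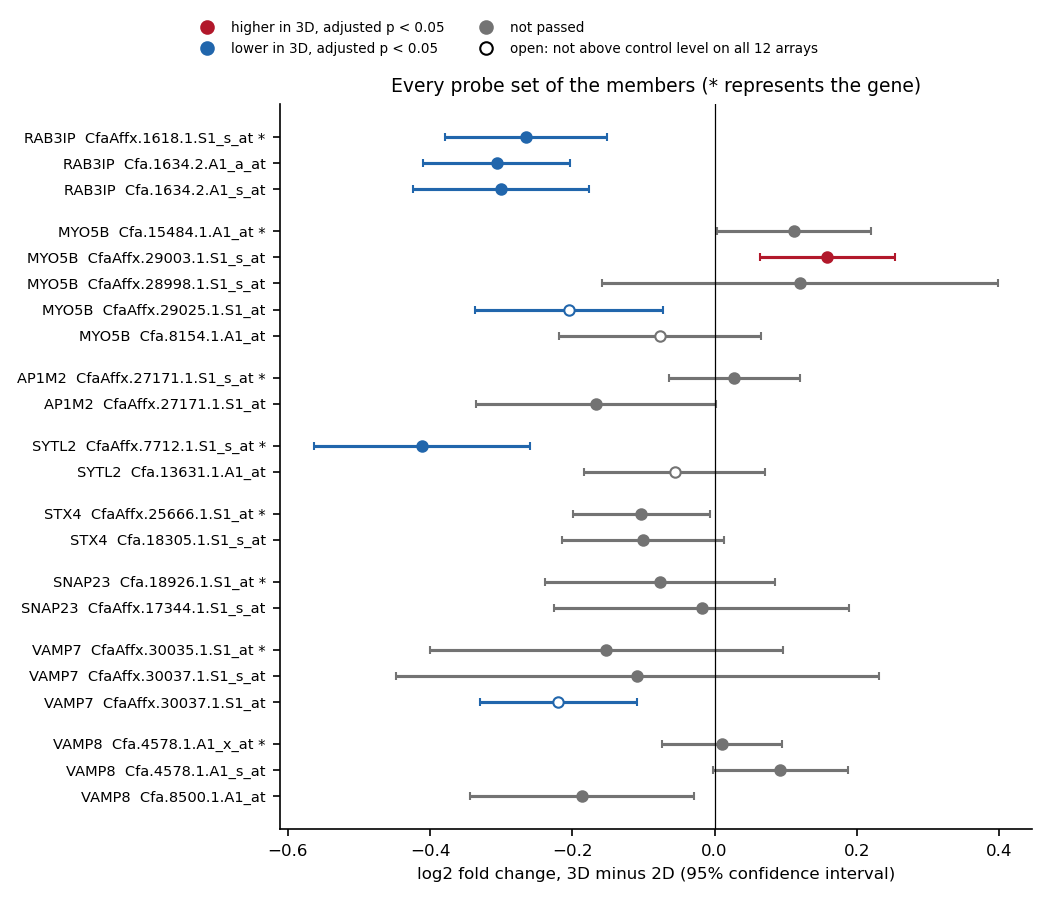
Log2 fold change, 3D minus 2D, of each of the 22 probe sets of the members with its 95% confidence interval. Colour gives the limma call and an open point marks a probe set that was not above the control level on all 12 arrays. The 3 probe sets of RAB3IP lie between -0.31 and -0.27, and those of MYO5B lie on both sides of 0.

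The rest of the machinery was read from 8 lists of 107 genes in all, of which 95 were measured. Without the members, 24 of 87 genes were higher (27.6%), 15 were lower (17.2%) and 48 did not pass. Over all 15115 genes 19.8% were higher and 22.9% were lower, the shares to set beside each list count below. No list was tested as a set. Over all 95, the median fold change was 0.03, against -0.05 over all genes. With the RNA control ratio as a covariate 18 of the 95 were higher and 14 were lower, against 1907 and 1259 of all 15115 genes. The genes named below are those with the largest changes in each list, and their numbers of probe sets differ.

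Most plasma membrane and vesicle SNAREs did not pass. Of 14 measured genes 2 were higher, 0 were lower and 12 did not pass, the members STX4, SNAP23, VAMP7 and VAMP8 among them. With the RNA control ratio as a covariate 2 were higher and 2 were lower, the lower ones being SNAP23 and VAMP7. The other measured syntaxins and SNAP proteins of this list, apart from STX11, had fold changes between -0.03 (SNAP25, at or below the control level on all 12 arrays) and 0.17 (SNAP29). VAMP5, a vesicle SNARE known from muscle, lay between 10.02 and 10.18 in 3D, against 9.59 to 9.91 in 2D, and was higher by 0.42 (SE 0.06, limma adjusted p = 2.08e-05). STX11, a syntaxin known from cytotoxic granules, had a fold change of 0.23 (limma adjusted p = 0.0431). Its call ended with quantile normalization and when any 1 of 9 arrays was left out (3D replicates 3 to 6 or 2D replicates 1, 2, 4, 5 and 6, limma adjusted p = 0.0567 to 0.103), and with the RNA control ratio as a covariate the value was -0.11.

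SNAREs of inner membranes moved in both directions. Of 12 measured genes of the route between endoplasmic reticulum and Golgi, 4 were higher and 2 were lower. The vesicle SNAREs YKT6 and SEC22B were higher by 0.31 and 0.27, and the Golgi SNARE BET1L by 0.25, while USE1, a SNARE of return transport to the endoplasmic reticulum, fell by 0.42 (SE 0.04, limma adjusted p = 1.69e-06) and the Golgi syntaxin STX5 by 0.23. USE1 lay between 9.43 and 9.57 in 3D, against 9.83 to 9.99 in 2D. With the covariate SEC22B kept most of its fold change (0.21) without passing (limma adjusted p = 0.113), while BET1L was at 0.025 and STX5 at -0.12 (limma adjusted p = 0.899 and 0.295). Of the 3 probe sets of YKT6, 1 was lower, and their mean gave 0.16. Of 7 genes of endosomes and the trans-Golgi network, VTI1B was higher by 0.17 and STX7, a late endosomal syntaxin, fell by 0.18. VTI1B had a similar fold change with the covariate, 0.16, but did not pass (limma adjusted p = 0.125). The call of STX7 ended without 2D replicate 3 (0.0503), with centring on the median (0.0535) and with the mean of its probe sets (0.205).

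Among 14 SNARE regulators 2 were higher and 5 were lower. STXBP5, the tomosyn that occupies syntaxin and SNAP proteins in place of a vesicle SNARE, lay between 9.08 and 9.43 in 3D, against 8.50 to 8.88 in 2D. Its groups did not overlap, and it was higher by 0.62 (SE 0.07, limma adjusted p = 2.43e-06). VPS33B, a Sec1/Munc18 protein of late endosomes and apical recycling, was higher by 0.20 (limma adjusted p = 0.0252), and by 0.35 with the covariate. Of the 5 probe sets of VPS33B, 3 were higher and 1 was lower, and their mean gave 0.27. Its call ended with quantile normalization (0.155) and when 3D replicate 1, 4 or 5 or 2D replicate 1 or 3 was left out (0.0523 to 0.0603). STXBP4, a binding partner of syntaxin 4, fell by 0.43 (SE 0.13, limma adjusted p = 0.0165), and by 0.73 with the covariate. NAPG, which helps take apart used SNARE complexes, fell by 0.31, and SCFD1, the Sec1/Munc18 protein of the Golgi, by 0.25. Averaging the 3 probe sets of NAPG ended its call (-0.12, limma adjusted p = 0.0577).

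Rab27 and its effectors held the largest single change. RAB27A, the GTPase that binds SYTL2, lay between 6.84 and 7.29 in 3D (median 7.20), against 6.06 to 6.35 in 2D (median 6.16). It was higher by 0.98 (SE 0.07, limma adjusted p = 3.29e-08), so this GTPase and its effector SYTL2 moved in opposite directions. RAB27A was read from 1 probe set, whose 2D levels lay not far above the control level. With an offset of 16 in the log its fold change was 0.855. RPH3AL, a further Rab27 effector of secretory cells, lay between 9.23 and 9.37 in 3D, against 9.75 to 10.00 in 2D, and fell by 0.58 (SE 0.05, limma adjusted p = 1.15e-07). Of the 2 probe sets of RPH3AL, 1 was lower, and their mean gave -0.34. In all, 1 of 11 genes was higher and 2 were lower. The remaining 8 genes, with RAB27B, SYTL1, SYTL3 and SYTL5 among them, did not pass and had fold changes between -0.16 and -0.01. Of these, RAB27B and MLPH lay at or below the control level on all 12 arrays. MYRIP lay above it on 1 2D array only, and SYTL3 and SYTL5 on some arrays.

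Genes of myosin V and apical recycling included 4 higher and 2 lower of 14. The epithelial Rab11 relative RAB25 was higher by 0.54 (SE 0.07, limma adjusted p = 1.49e-05) and myosin Va, MYO5A, by 0.46 (SE 0.06, limma adjusted p = 7.86e-06), or 0.25 over the mean of the 3 probe sets of MYO5A. RAB8A, the target of Rabin8, had a fold change of 0.47 (limma adjusted p = 0.00541), next to the fall of RAB3IP. RAB8A was at -0.03 with the covariate (limma adjusted p = 0.877), and averaging its 2 probe sets also ended the call (0.14, limma adjusted p = 0.227). RAB11A, the GTPase that recruits Rabin8, was higher by 0.31 (SE 0.04, limma adjusted p = 1.64e-05), and is named after its value was seen. RAB11B fell by 0.18 (limma adjusted p = 0.0135), a call that ended with the covariate (-0.051, limma adjusted p = 0.704) and with the mean of its probe sets (0.0583). MYO5C, RAB8B and RAB3IL1, the paralogue of RAB3IP, did not pass.

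In the list of AP-1 and clathrin, to which AP1M2 belongs, 1 of 9 genes was higher and 2 were lower. The gamma2 adaptin AP1G2 was higher by 0.20, and the clathrin light chains CLTA and CLTB fell by 0.27 and 0.15. With the covariate the 3 calls ended at fold changes of 0.22 for AP1G2, -0.18 for CLTA and -0.073 for CLTB (limma adjusted p = 0.0537, 0.0909 and 0.512), so the value of AP1G2 was no smaller. The call of CLTB also ended when its probe sets were averaged. AP1M1, the general counterpart of AP1M2, had a fold change of 0.05 (limma adjusted p = 0.433).

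Among the apical sorting factors 9 of 14 were higher and 3 were lower, and the counts were the same with the covariate. MAL, a raft proteolipid needed for apical transport in MDCK cells, lay between 13.58 and 13.68 in 3D, against 12.95 to 13.17 in 2D, and was higher by 0.58 (SE 0.05, limma adjusted p = 5.49e-08). S100A10 and ANXA2, which form a membrane-binding complex, were higher by 0.75 and 0.57. MAL2, the relative of MAL, fell by 0.56 (SE 0.16, limma adjusted p = 0.0125), with overlapping groups and its lowest value, 8.24, among the 3D arrays. With the covariate the fold change of MAL2 was -1.26 (limma adjusted p = 1.12e-05), and without 3D replicate 2 it was -0.42 (limma adjusted p = 0.0112). MAL2 was read from 1 probe set. ITSN2, an exchange factor for Cdc42, fell by 0.58 and KIFC3, a kinesin of apical transport, by 0.54. Averaging the 6 probe sets of ITSN2, of which 4 were lower, gave -0.33.

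**Figure D3:**
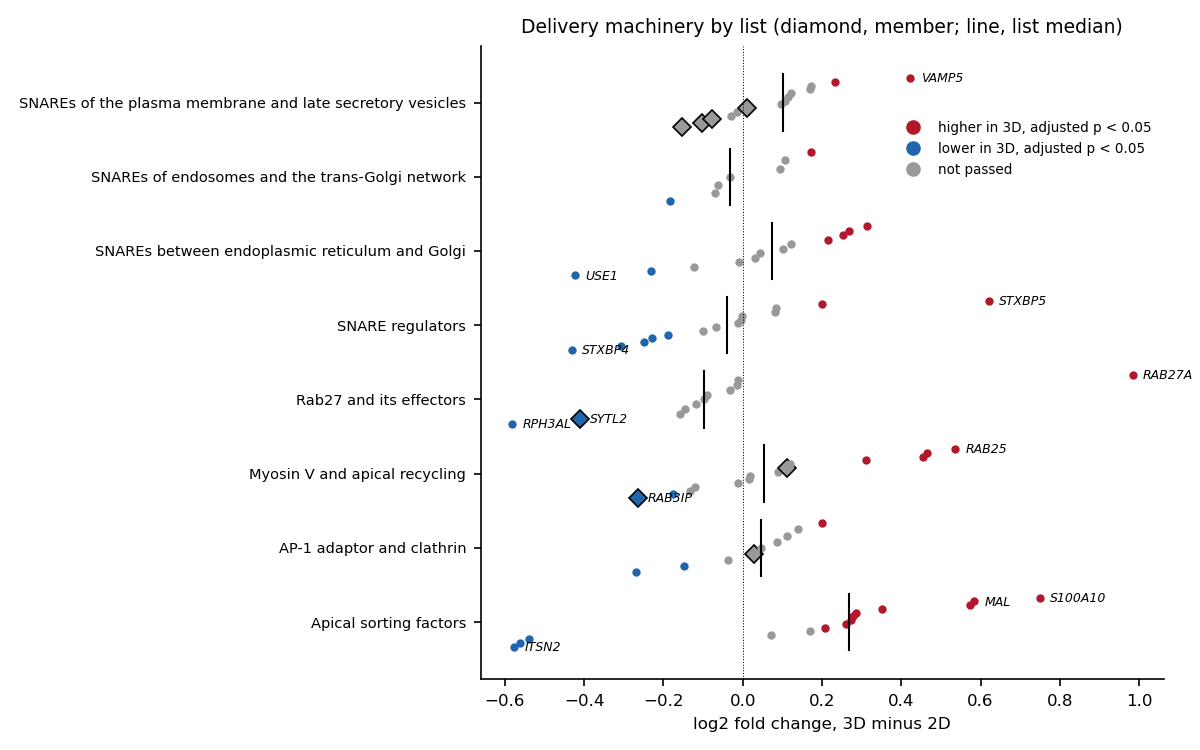
Log2 fold change, 3D minus 2D, of the 95 measured genes in 8 lists of the delivery machinery, coloured by the limma call. Diamonds mark the 8 measured members and a vertical line the median of each list. The members lie between -0.41 and 0.11, RAB27A stands apart at 0.98, and the sorting factors have the highest median, 0.27.

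Over 22 alternative settings, SYTL2 passed in 22 and RAB3IP in 21, while AP1M2 and VAMP8 passed in 0. MYO5B, STX4, SNAP23 and VAMP7 each passed in 1, the setting given with each gene above.

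**Figure D4:**
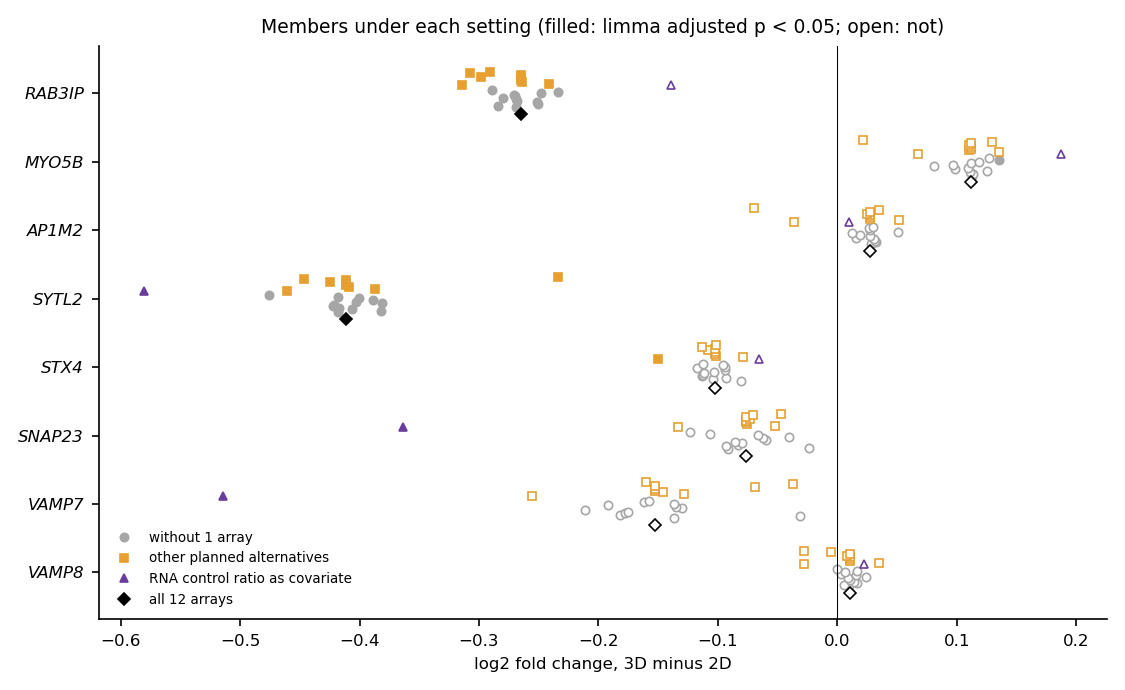
Log2 fold change, 3D minus 2D, of each measured member with all 12 arrays (diamonds), without any 1 array (circles) and under the other settings (squares, and triangles for the RNA control ratio as a covariate). Filled symbols had a limma adjusted p under 0.05. The covariate moves RAB3IP to -0.14 and VAMP7 to -0.51, and the symbols of VAMP8 lie between -0.03 and 0.03.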

How the data were processed

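Per the labels' protocols, total RNA from collagenase-digested gels was pooled from 4 samples per array and hybridised as biotinylated cRNA to an Affymetrix dog array. The deposited values are probe set intensities on a linear scale, and per the submitters' processing notes the authors used GCRMA. The pools are called biological replicates, but nothing says whether they share cultures, and the p-values cover only how far these pools differ, which may be technical.

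From 43035 probe sets, 111 controls were left out and 42924 were tested as log2(intensity + 1) with limma 3.58.1 in R 4.3.3 (lmFit and eBayes, culture as the only term, Benjamini-Hochberg adjustment, threshold 0.05). The platform annotation gave 29254 probe sets 1 gene, 439 several and 13231 none. The highest mean over all arrays chose each gene's probe set. Median intensities lay between 90 and 93.8, and precision is limited by 6 arrays per group.

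Genes named beyond the members are, in each list, up to 3 with the largest passing change in each direction. Members and lists were chosen with earlier results of these data known. Of 3 intended pair comparisons, 1 could be run. Alternatives were an offset of 16 in the log, a filter on low values, quantile normalization, centring on the median, array weights, a trended and robust variance prior, leaving out 2D replicate 6 and 3D replicate 2 together, the mean over a gene's probe sets, the RNA control ratio as a covariate, the replicate number as a block, and leaving out each array. The linear model was tested on simulated data. Figures were drawn with matplotlib 3.10.9.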

Additional observations from a re-analysis of the deposited data

Results flagged for a closer look

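In 6 of 44 groups of 6 arrays, 1 array of a member's probe set lay far from the other 5 by Dixon's test, and chance flags about 1 in 20 groups. Of these 6 values, 4 came from 3D replicate 2, the 3D array with the lowest RNA control ratio (-0.88 on the log2 scale). Both probe sets of SNAP23 were low there, at 9.88 where the other 3D arrays lay between 10.16 and 10.23, and at 8.33 where they lay between 8.73 and 8.94. VAMP7 was low there in its second probe set, at 7.68 where the other 3D arrays lay between 8.45 and 8.79. A MYO5B probe set at or below the control level on all 12 arrays was high there, at 5.63 against 5.35 to 5.45. The part of RNA quality in these values was not tested.

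The remaining values came from other arrays. AP1M2 was at 10.21 in 3D replicate 5, where the other 3D arrays lay between 10.13 and 10.15. The dim MYO5B probe set with a lower call was at 6.12 in 2D replicate 1, where the other 2D arrays lay between 5.79 and 5.90.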

How the results depend on the processing

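Of the 8 members, SYTL2 passed under all 22 alternatives (-0.58 to -0.23, limma adjusted p at most 0.00672). RAB3IP had a value below 0 under all of them and passed in 21. With the RNA control ratio as a covariate its value was -0.14 (limma adjusted p = 0.256), while SNAP23 (-0.36) and VAMP7 (-0.51) passed, STX11 (-0.11) and RAB8A (-0.033) changed sign, and of 29 named pathway genes 19 kept their call. That covariate, which differs between the cultures, left 1907 genes higher and 1259 lower, and 4303 probe sets higher and 3624 lower. The cause was not tested. Quantile normalization gave STX4 -0.15 and a call. Leaving out 1 array gave 0 to 1 members higher and MYO5B 0.081 to 0.14, the call coming without 2D replicate 5. Across all alternatives 2 to 3 of 8 members were lower, and 18 to 26 of 95 pathway genes were higher and 14 to 20 lower. Of all 15115 genes, 1907 to 3228 were higher and 1259 to 4148 lower. With the covariate 3 of 8 members were lower, against 1259 of all 15115 genes, so the share of lowered members was not near the background in that fit. The mean over a gene's probe sets moved SYTL2 (-0.23), YKT6 (0.16), MYO5A (0.25), RPH3AL (-0.34) and ITSN2 (-0.33) by over 1.5 times without ending the call. The covariate did the same for STX7 (-0.37), VPS33B (0.35), STXBP4 (-0.73) and MAL2 (-1.26). With the replicate number as a block, 0 members were higher and 2 lower, and 3055 genes were higher and 3542 lower. Whether the numbers pair the arrays was not tested. Same-numbered deviations correlated between 0.000836 and 0.36, with 3 of 6 over 0.1, and 5 of 12 arrays correlated best with their own number. A probe set that exceeded the control level on no array gives no sure reading of its gene, although 14.1% of such probe sets were called lower. One that exceeded it on some arrays gives only a bound on the other arrays.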

Other observations

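Several further genes of the delivery lists passed the test. The galectins LGALS3, LGALS4 and LGALS9, lectins known to cluster apical glycoproteins, were higher in 3D by 0.35, 0.28 and 0.26, and the groups of each did not overlap. All 3 probe sets of LGALS3 were higher, but only 1 of 3 of LGALS4 and 1 of 2 of LGALS9. LGALS4 was dim, above the control level on 5 of 6 2D arrays. ANXA13, an annexin of apical vesicles, was higher by 0.29 and the kinesin heavy chain KIF5B by 0.21. DNMBP, an exchange factor for Cdc42 also called Tuba, was higher by 0.27 (limma adjusted p = 0.0340), whereas ITSN2, which acts on the same GTPase, was lower. The groups of DNMBP overlapped, and only 1 of its 3 probe sets was higher. NAPA, which with NSF takes apart used SNARE complexes, fell by 0.23, as its relative NAPG fell, while NSF itself had a fold change of 0.09 and did not pass (limma adjusted p = 0.454). These genes were named after their values were seen.

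In some genes all 3D arrays lay on one side of all 2D arrays although the limma call failed. Such separation, with or without a call, was found in 22.6% of all genes. The genes below were picked for it. CLTC, the clathrin heavy chain, lay between 13.90 and 13.97 in 3D, against 13.61 to 13.88 in 2D (limma adjusted p = 0.0895). STXBP2, the Sec1/Munc18 protein that pairs with syntaxin 3 in epithelia, lay between 10.12 and 10.19 in 3D, against 10.20 to 10.33 in 2D (limma adjusted p = 0.0590).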
